A study of Mus musculus with 18 samples.

Results

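The probes described here rose at least 4-fold (2 on the log2 scale) after 120 h without leukaemia inhibitory factor (LIF) in the mouse embryonic stem (ES) cell lines ZHBTc4 and Oct4, and moved by no more than 0.5 on the log2 scale in the line Oct4 VP2. There were 84 of them among the 25030 probes of the authors' deposited value table (0.336%). Each change was the mean of the 2 arrays at 120 h without LIF minus the mean of the 2 arrays of the same line at 24 h with LIF. The members were thus chosen by these measured changes, which are described without a test. The arrays at 48 h without LIF took no part in the choice, and the tests were made there.

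The study asked whether transcriptional activation by Oct4 is enough to keep ES cells pluripotent, by joining Oct4 to the strong activation domain of the viral protein VP16. Total RNA of each sample was labelled with Cy3 and hybridised with a Cy5-labelled universal mouse reference RNA on arrays of 60-base probes. There were 18 arrays in 9 groups, with 2 arrays a group, which the series describes as independent clones of each line. The small number of arrays limits the precision of every value below.

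All cells were ES cells of 129/Ola origin. In ZHBTc4, labelled as a gene knock-in, Oct4 comes from a transgene that tetracycline switches off. The Oct4 and Oct4 VP2 lines were derived from ZHBTc4 by electroporation of an Oct4 or an oct4-vp16 construct under puromycin selection, with tetracycline present to silence the parental transgene. No label names the promoter of these constructs. The Oct4 VP2 cultures were plated at 250000 cells a flask and the others at 200000. The labels give tetracycline and 2 µg/ml puromycin for every Oct4 VP2 culture and for the Oct4 cultures without LIF, and mention neither for ZHBTc4 or for the Oct4 cultures with LIF. The Oct4 cultures with LIF are also labelled as a gene knock-in, unlike the later Oct4 samples, and their replicates carry different line numbers. In each line RNA was taken 24 h after plating with LIF, or 48 h or 120 h after LIF was withdrawn, with the medium changed to one without LIF 24 h after plating. The 120 h cultures had a further medium change, given as at 72 h for Oct4 and Oct4 VP2 and as after 2 days of withdrawal for ZHBTc4. LIF and time in culture thus changed together and their parts cannot be told apart. By the labels, tetracycline, puromycin and the knock-in label also differed between the Oct4 cultures with LIF and those without. Their parts in the Oct4 rise cannot be told apart from those of LIF and time either.

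LIF acts through the receptor subunit gp130 and the transcription factor Stat3 to hold mouse ES cells in self-renewal, and its withdrawal lets them differentiate. Oct4 is a POU-domain transcription factor that ES cells need to remain pluripotent, and it can both activate and repress its targets. The VP16 domain recruits the general transcription machinery and coactivators to the sites its fusion partner binds.

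The sequences of 4 members are shown because they had, within each direction, the largest called differences between Oct4 VP2 and Oct4 at 48 h, the comparison on which the results turn. They are printed in lower case from 5′ to 3′ as the array files give them, with no base singled out. The first pair was lower in Oct4 VP2 and the second pair higher.
Z00043760-1: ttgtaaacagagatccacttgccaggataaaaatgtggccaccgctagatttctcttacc
Z00000446-1: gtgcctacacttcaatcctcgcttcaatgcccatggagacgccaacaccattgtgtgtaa
Z00026280-1: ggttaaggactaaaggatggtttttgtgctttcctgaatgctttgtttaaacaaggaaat
Z00012342-1: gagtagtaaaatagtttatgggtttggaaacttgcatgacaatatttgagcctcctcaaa

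The array files identify probes by design numbers, none of which (0) was found in a RefSeq table of mouse genes. Genes, positions and protein products of the members are therefore not given. For the same reason, lists of pluripotency and lineage genes and the ES cell identity of the samples were not analysed here. Each member was printed on the array as 1 spot. No pair of members shared a run of 16 bases on either strand (0 pairs). Whether some of them lie in the same gene was not analysed here. The 84 sequences had a median GC content of 42.5% (quartiles 35% and 45%), against 43.3% over the value table (quartiles 36.7% and 48.3%). The polyadenylation signal AATAAA, searched on the probe strand, was present in 3 members (3.57%) and in 7.9% of the table's probes. No member (0) lay whole within any of 32851 RefSeq mouse promoter windows, where 267 of the array's 42006 probes did.

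Loss of the rise in Oct4 VP2 was a matter of degree. In all, 425 probes (1.7% of the value table) rose by 2 or more on the log2 scale in both ZHBTc4 and Oct4. Their median change in Oct4 VP2 was 1.29. Of the 425, 114 (26.8%) rose by 2 or more in Oct4 VP2 as well, 209 (49.2%) rose by between 0.5 and 2, the 84 members (19.8%) stayed within the band and 18 (4.2%) fell by more than 0.5. The members thus lie within a continuous spread with no gap at its edge, since the member nearest the upper limit had an Oct4 VP2 change of 0.491 and the nearest probe beyond it 0.503. At the other limit, the smallest rise among members was 2.01, and the nearest probe outside had 1.99.

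By construction the members rose in ZHBTc4, with a median of 2.52 on the log2 scale (2.01 to 6.07), and in Oct4, with a median of 2.57 (2.02 to 6.53). The median in Oct4 VP2 was 0.16. Most of the members' rise came after 48 h. The rule required a rise at 120 h and nothing at 48 h, and both changes share the arrays with LIF. This timing is therefore a description, and it is not given for other probes. At 48 h the median change from the cultures with LIF was 0.64 in ZHBTc4 and 0.63 in Oct4, and the median member had reached 22.2% and 21.9% of its 120 h change. In both lines 33 members had covered less than 25% of the change at 48 h, and 5 had covered 50% or more. Between 48 h and 120 h the median change was 2.07 in ZHBTc4, 2.1 in Oct4 and 0.39 in Oct4 VP2. No Oct4 VP2 change over that interval reached 2 (0 of 84) and 12 reached 1. The rule held the Oct4 VP2 change at 120 h within the band, so a change of 2 would have needed a large fall at 48 h. It also required the rise in the other lines. These differences between lines were thus largely built into the choice.

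In Oct4 VP2 the members tended to be lower at 48 h than before or after. Their median at 48 h was 0.23 below the cultures with LIF (-0.23), and 11 members were lower by 1 or more. Both 48 h arrays lay below both arrays with LIF for 44 of the 84 members, where 28.4% of all probes tested did. The reverse order was seen for 7 members, against 24.4% of all probes. In ZHBTc4 the corresponding counts were 11 members below (32.9% of all probes) and 44 above (31.6%). In Oct4 they were 6 below (25.4%) and 34 above (32.1%). The 24 h arrays with LIF belong to the rule, so these counts are a description.

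The level at the start was compared next, on Oct4 VP2 arrays of the first scan session and arrays of the other lines from the second, so that line and session cannot be told apart there. With LIF, the members' median difference was 0.44 above Oct4 and 0.27 above ZHBTc4 on the log2 scale. Of the 84, 20 were higher than in Oct4 by 1 or more and 4 were lower by as much, and the counts against ZHBTc4 were 18 and 10. At 120 h the medians were -2.21 against Oct4 and -2.28 against ZHBTc4, with 78 and 75 members lower by 1 or more. The rule used all the arrays with LIF and at 120 h and so shaped these differences, which are a description. The shares over all probes were not computed. The Oct4 VP2 level was then taken as the mean of its levels with LIF and at 120 h. It lay at a median of 17.2% of the way from the starting to the final level of Oct4, and at 14.6% in ZHBTc4. For 69 members it lay below the midpoint in both lines. For 4 members it lay above the midpoint in both, so that their flat course in Oct4 VP2 was at a raised level.

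Many members were dim before LIF was withdrawn. A probe counted as well above background by the scanner software's own test on the Cy3 channel, which holds the sample. With LIF, 54 members passed on both ZHBTc4 arrays, 49 on both Oct4 arrays and 53 on both Oct4 VP2 arrays. At 120 h the counts were 82, 81 and 62. On both arrays of each of the 9 groups, 47 members passed. For each of the other members, at least 1 side of the change in at least 1 line rests on a signal near background. In such a line its change in the value table is not a measured fold. After normexp background correction with an offset of 50, which shrinks ratios of dim probes, the members' median 120 h changes were 1.64 in ZHBTc4, 1.51 in Oct4 and 0.03 in Oct4 VP2. For the 47 bright members they were 2.09, 2.25 and 0.15. In bulk RNA, fewer cells of a type and less RNA per cell cannot be told apart.

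A pair of members shows the difference. The member with the largest mean rise was well above background on all 18 arrays. Its log2 ratio to the reference, after normexp and loess, in Oct4 was -4.63 and -3.95 before withdrawal of LIF, -3.79 and -3.86 after 48 h, and 1.27 and 1.52 after 120 h. In Oct4 VP2 it was -3.74 and -3.77 before, -3.75 and -3.83 after 48 h, and -3.44 and -4.26 after 120 h. Of these 12 arrays, only those of Oct4 at 120 h stood apart. The next largest, with a value table change of 6.07 in ZHBTc4, was well above background on no array with LIF (0). Its normexp ratios in ZHBTc4 were -3.57 and -3.65 to begin with and -1.49 on both arrays at 120 h, a smaller step. In Oct4, where its value table change was 2.52, they were -3.82 and -3.48 with LIF and -3.08 and -3.28 at 120 h.

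Array by array, the members' median log2 ratio was 0.34 and 0.47 in ZHBTc4 and 0.22 and 0.26 in Oct4 at 120 h. In Oct4 VP2 at 120 h it was -0.42 and -0.84. The 12 arrays of the remaining groups lay between -1.07 and -0.48. The Oct4 VP2 arrays at 120 h thus stayed below the 4 arrays of the other lines at that time, with no overlap of the medians. The rule used these 120 h arrays, so their separation was largely built into the choice of members and was not tested.

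The 2 Oct4 VP2 arrays at 120 h differed for many members. They were 1 or more apart on the log2 scale for 30 members (35.7%), against 11.4% of all probes in the value table. Replicate 1 was the higher by a median of 0.42. Taken alone, it left 47 members in the band, 32 above it and 5 below. Replicate 2 alone left 54 in the band, 9 above it and 21 below. On both arrays 30 members were in the band, and 13 had replicate 1 above it and replicate 2 below, so that only their mean was flat. The Oct4 arrays with LIF were 1 or more apart for 25 members (29.8%), against 14.1% of the table. In the other 7 groups the share was from 4.76% to 14.3%.

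Slides and scan days differed, with 5 slides and 2 scan sessions for the 18 arrays. All Oct4 VP2 arrays and the Oct4 arrays without LIF were in the first session, and the Oct4 and ZHBTc4 arrays with LIF were in the second. The Oct4 rise therefore spans sessions while the flat course in Oct4 VP2 does not. In ZHBTc4 the replicates without LIF were split between sessions. Against the arrays with LIF, the 120 h array of the same session gave a median change of 2.46 and that of the other session 2.59, with 71 and 77 members at 2 or more. Within the first session, Oct4 rose from 48 h to 120 h by a median of 2.1 and Oct4 VP2 by 0.39. The rule used the 120 h arrays of all lines, so these changes are a description. An effect of the session was not tested by them.

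At 48 h the differences between Oct4 VP2 and the other lines were small for most members. A probe was called at a Benjamini-Hochberg adjusted p under 0.05 in limma, over 31727 probes tested, with a difference of at least 2-fold. All 84 members were among those tested. The filter asked for a signal well above background on both arrays of any group. At 120 h, where the rule required a rise, 82 members passed in ZHBTc4 and 81 in Oct4, so the choice favoured their entry. Against Oct4, 7 members were lower in Oct4 VP2 (8.33%, where 2.81% of all probes tested were) and 3 were higher (3.57%, where 3.3% were). Against ZHBTc4, 8 were lower (9.52%, where 2.67% were) and 1 was higher (1.19%, where 3.22% were). Members could come only from the value table, of which 19438 probes were tested. Of these, 3.53% were lower and 4.02% higher in Oct4 VP2 than in Oct4. Against ZHBTc4 the shares were 3.26% lower and 3.93% higher. The 2 comparisons share the Oct4 VP2 arrays. At an unadjusted p under 0.05 in limma, in either direction, 27 members differed from Oct4 (33.6% of all probes did) and 33 from ZHBTc4 (35.4% did). Without Oct4 48 h replicate 2, no member was called higher than in Oct4 (0), and without Oct4 VP2 48 h replicate 2 there was 1. The member higher than in ZHBTc4 was also not called without Oct4 VP2 48 h replicate 2 (0 called). With at least 3 groups required to pass the background filter, 72 members were tested. Of these, 7 were lower in Oct4 VP2 than in Oct4 (3.06% of all probes tested there) and 8 lower than in ZHBTc4 (2.91%).

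The members' median difference was -0.14 against Oct4 and -0.30 against ZHBTc4, where the medians over all probes were both -0.01. The first of these was -0.24 without Oct4 48 h replicate 2 and -0.09 without Oct4 48 h replicate 1. In the value table the members on these 2 Oct4 arrays differed by a median of 0.48. In each comparison 67 of the 84 members were below 0, against 51.9% and 50.9% of all probes. Both Oct4 VP2 arrays lay below both Oct4 arrays for 44 members, an order that 32.7% of all probes showed, and above them for 8, against 29.6%. Against ZHBTc4 the counts were 55 below (30.9% of all probes) and 9 above (30%). In the value table, whose dim probes are not shrunk, 13 members were lower than in Oct4 (4.55% of all probes tested there) and 6 higher, with a median of -0.45. Against ZHBTc4, 17 were lower (4.1% of all probes) and 2 higher, with a median of -0.73. The shares of all probes called higher in the value table were not computed, so nothing is read from the counts of higher members there. All 4 arrays of Oct4 VP2 and Oct4 at 48 h showed 51 members well above background. No Oct4 VP2 array did so for 22.

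The other probes that rose in ZHBTc4 and Oct4, those outside the Oct4 VP2 band, were examined in the same comparisons. Of the 340 tested, 88 (25.9%) were lower than in Oct4 and 89 (26.2%) lower than in ZHBTc4, with medians of -0.44 and -0.58. The difference between these shares and those of the members was not tested.

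Oct4 and ZHBTc4 were compared in the same way at 48 h. A single member (1) was lower in Oct4, where 0.385% of all probes were, and no member (0) was higher, where 0.366% were. Among the value table probes tested, 0.442% were lower and 0.442% higher. At an unadjusted p under 0.05 in limma, 16 members differed, where 18.1% of all probes did. The members' median difference was -0.12, with 53 of 84 below 0 (49.1% of all probes). Both Oct4 arrays lay below both ZHBTc4 arrays for 28 members (22.5% of all probes) and above them for 11 (24.6%). The called member had log2 ratios of -2.38 and -3.01 in Oct4 and -1.42 and -1.81 in ZHBTc4, a difference of -1.08 (SE 0.27, limma adjusted p = 0.048). The arrays did not overlap, but the call was lost whenever any of the 4 arrays was left out (0 members called each time).

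Among the named members, Z00043760-1 had the largest difference. With LIF its log2 ratios were -1.39 and -1.67 in Oct4 VP2, -0.92 and -0.88 in Oct4, and -0.98 and -0.93 in ZHBTc4. At 48 h they were -2.11 and -2.16 in Oct4 VP2, -0.07 and -0.38 in Oct4, and 0.24 and -0.24 in ZHBTc4. At 120 h they were -1.42 and -1.57, 1.30 and 1.14, and 1.02 and 0.66 in the same order. Oct4 VP2 was the lowest line in every condition, without overlap. For this and the other named members, the rule used the arrays with LIF and at 120 h, so the order there is a description. With LIF, Oct4 VP2 and the other lines were also in different scan sessions. At 48 h it was 3.75-fold below Oct4 (log2 difference -1.91, SE 0.17, limma adjusted p = 1.2e-05) and 4.4-fold below ZHBTc4 (-2.14, SE 0.17, limma adjusted p = 6.8e-06).

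Z00000446-1 began at like levels in the lines. With LIF the ratios were -4.00 and -4.65 in Oct4 VP2, -4.93 and -4.26 in Oct4, and -3.95 and -4.04 in ZHBTc4. At 48 h Oct4 VP2 had -5.30 and -5.32, Oct4 -3.38 and -4.31, and ZHBTc4 -3.86 and -3.55. At 120 h they were -4.59 and -4.52, -1.93 and -2.89, and -2.08 and -1.95. The Oct4 VP2 arrays at 48 h were the lowest of all 18 for this probe. The difference there was -1.47 against Oct4 (SE 0.34, limma adjusted p = 0.0075) and -1.61 against ZHBTc4 (SE 0.34, limma adjusted p = 0.0043). Without Oct4 48 h replicate 1 the first of these was no longer called (limma adjusted p = 0.094).

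Z00026280-1 was higher in Oct4 VP2 than in Oct4 from the start. With LIF the ratios were -1.59 and -0.94 in Oct4 VP2, -3.14 and -3.04 in Oct4, and -1.65 and -1.73 in ZHBTc4. At 48 h they were -2.16 and -1.43, -2.87 and -2.96, and -1.87 and -1.74. At 120 h Oct4 VP2 had -1.71 and -1.27, Oct4 -1.70 and -1.78, and ZHBTc4 1.72 and 2.59. At 120 h Oct4 thus overlapped with Oct4 VP2, and both ZHBTc4 arrays lay above them. At 48 h the difference was 1.12 from Oct4 (SE 0.29, limma adjusted p = 0.013) and 0.01 from ZHBTc4 (SE 0.29, limma adjusted p = 0.99).

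Z00012342-1 also began higher in Oct4 VP2 than in Oct4. With LIF its ratios were 1.61 and 2.32 in Oct4 VP2, 0.10 and 0.59 in Oct4, and 1.65 and 1.40 in ZHBTc4. At 48 h they were 1.66 and 2.30, 1.14 and 0.61, and 1.40 and 1.53. At 120 h Oct4 VP2 had 2.53 and 2.36, Oct4 3.95 and 3.97, and ZHBTc4 3.68 and 3.23. Oct4 VP2 lay above Oct4 without overlap until 48 h and below it at 120 h. The 48 h difference was 1.1 from Oct4 (SE 0.27, limma adjusted p = 0.011) and 0.52 from ZHBTc4 (SE 0.27, limma adjusted p = 0.2). The calls of both higher probes against Oct4 were lost without Oct4 VP2 48 h replicate 2 (limma adjusted p = 0.14 and 0.12) or Oct4 48 h replicate 2 (0.07 and 0.1). For Z00026280-1 leaving out Oct4 48 h replicate 1 also ended the call (limma adjusted p = 0.057).

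The 7 members called lower than in Oct4 had differences from -1.14 to -1.91, and the 8 called lower than in ZHBTc4 had differences from -1.24 to -2.14. The 3 called higher than in Oct4 lay between 1.09 and 1.12, close to the 2-fold limit, and the 1 called higher than in ZHBTc4 had 1.09.

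The reference RNA in the Cy5 channel, common to the 18 arrays, served as a control. Its log2 signals were corrected by normexp and quantile-normalised between arrays, in place of the loess ratios. Tested alone with the same model and limits, it gave no member a call in any of the 3 comparisons (0 each). Of all probes, 0.183%, 0.183% and 0.0315% were called. At an unadjusted p under 0.05 in limma, 6, 4 and 9 members differed in Cy5, where 8.4%, 8.52% and 9.44% of all probes did. The members' median Cy5 differences were 0.01, -0.01 and -0.02. The Oct4 VP2 arrays at 48 h were on 1 slide and the Oct4 arrays on another, so slide and line cannot be told apart there.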

How the data were processed

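Spot intensities came from Agilent Feature Extraction 9.5.1.1, per the file headers. The deposited value table holds log10 values, and its differences between arrays matched the log10 ratio of the processed Cy3 over Cy5 signals within 0.001 for 100% of values. A constant per probe remains unknown (column medians 2.33 to 2.36), as does the authors' filter to 25030 probes. Times 3.3219 gives log2. The members and lists were chosen with earlier results of these data known.

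For tests, mean signals were background-corrected (normexp, offset 50) and loess-normalised within arrays in limma 3.58.1 (R 4.3.3), with control spots weighted 0 and outlier flags left out. All 9 group means over 18 arrays were fitted in 1 model. A probe was tested where Cy3 signal was well above background in both replicates of some group (31727 probes). The procedure was tested on simulated data with independent normal noise. The simulation held no slide or session effects, so it says nothing on those. Named probes were up to 2 a direction with the largest non-overlapping called difference between Oct4 VP2 and Oct4 at 48 h. That rule allowed more names, which were held back because the identifiers match no gene. Python 3.11.15 made the summaries. Alternatives are given in the closing section.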

Additional observations from a re-analysis of the deposited data

How the results depend on the processing

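The number of probes meeting the choice of members depended on the scale: 35 with normexp and loess ratios, 26 of them among the 84, and 165 with a band of -1 to 1. Leaving out each of the 12 arrays used gave 61 to 107 probes, with 61 (47 of the 84 among them) without Oct4 VP2 120 h replicate 2. At 48 h, with Feature Extraction processed signals 13 members were lower in Oct4 VP2 than in Oct4 (5.1% of all probes), 15 lower than in ZHBTc4 (3.65%) and 4 differed between Oct4 and ZHBTc4 (1.94%). In the value table the counts were 13, 17 and 4 (4.55%, 4.1% and 1.18%). The single difference between Oct4 and ZHBTc4 became 0 with no filter on dim probes, with slide as a random block, with the 48 h arrays alone, with the first scan session alone (chosen after seeing the data) and on leaving out any of the 4 arrays compared (0 to 0), and 2 with the replicate number as a block. That block left 7 and 9 members lower in Oct4 VP2. Whether the numbers pair the arrays is not settled by the labels: deviations of same-numbered arrays correlated at 0.29 to 0.52 among Oct4 VP2 conditions, -0.23 to 0.22 in Oct4 and -0.04 to 0.70 in ZHBTc4. Leaving out each of the 4 arrays compared gave 5 to 8 members lower than in Oct4 and 6 to 9 lower than in ZHBTc4. The cause of these shifts was not tested. Counts of members lower in Oct4 VP2 stayed within 1.5 times of 7 and 8 under the other settings run. Dim signals limit the members that were not well above background.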
